A study of Mus musculus with 8 samples.

Results

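The proteins that start, extend and end protein synthesis were followed here through the differentiation of mouse oligodendrocytes. The genes were taken by name from the deposited values: symbols that begin with Eif1 to Eif6, Eef1 or Eef2, Gspt or Pabpc, and Etf1 and Abce1, leaving out the Eif2b subunits. Of 10987 listed transcripts, 50 met this rule, each from a different gene. The rule also takes in enzymes that act on the factors (kinases and methyltransferases) and Eif4a3, an RNA helicase of the exon junction complex that is not an initiation factor. It uses names alone and no measured value. By role, the 50 comprise 8 subunits of eIF3, 8 members of the eIF4 group, 6 genes of eIF2 and initiator tRNA delivery, 4 elongation factors and smaller groups.

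Translation starts when eIF2 brings the initiator methionine tRNA to the small ribosomal subunit, eIF3 and the eIF1 proteins prepare that subunit, and the eIF4 proteins attach it to the capped end of an mRNA. eEF1 then delivers each aminoacyl-tRNA to the ribosome, eIF5A helps at difficult peptide bonds, and the release factors eRF1 and eRF3 free the finished protein. Many of these factors, like the ribosomal proteins, are encoded by TOP mRNAs, which begin with a run of pyrimidines and are translated under the control of the kinase complex mTORC1.

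Ribosome profiling (sequencing of the mRNA fragments that ribosomes protect from nuclease) and RNA-seq were run on oligodendrocyte progenitor cells (OPCs) and on oligodendrocytes (OLs), to ask how ribosomes use the mRNAs of the 2 cell types. The OPCs were derived in vitro from epiblast stem cells of male preimplantation embryos of 129S/SvEv mice and grown on poly-L-ornithine and laminin in DMEM/F12 with N2 Max, B27, bFGF and PDGFA. For the OLs, OPCs were first passaged in growth medium that lacked bFGF and then differentiated in DMEM/F12 with N2 Max, B27, noggin, IGF-1, cyclic AMP, NT3 and the thyroid hormone T3, and were collected after 3 days. Each cell type was represented by 2 cultures, and each culture by 1 footprint and 1 RNA-seq library, so there were 8 libraries in all. By the methods, the OLs were differentiated from the OPC replicates, and matching them by replicate number is an assumption. By the study's description some OPCs stay undifferentiated in OL cultures. The study describes the cultures as biological replicates from independent experiments. The p-values of the linear model limma rest on the spread between 2 cultures of each cell type, drawn toward that of transcripts at a similar level. The main fits do not use the match by replicate number.

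Values are FPKM, fragments scaled to the length of the feature and to the size of the library, on the coding sequence for footprints and on the whole transcript for RNA-seq. Ribosome density (RD) is footprint FPKM divided by RNA-seq FPKM of the same culture. FPKM gives each transcript as a portion of its library, so a lower value is a lower portion, and in these bulk cultures fewer cells of a type and less RNA per cell cannot be told apart. Depth, estimated in aligned bases, ran from 93.0 to 249 Mb over the footprint libraries and from 78.0 to 241 Mb over the RNA-seq libraries. These depths were read from the steps of the FPKM values and may be off by a common factor, as may the read numbers derived from them below. OL replicate 2 was the shallowest culture in both, and 31.1% of its footprint values are listed at 0, against 14.7% to 20.5% in the other footprint libraries. The cell type labels were checked with markers. The oligodendrocyte markers Mag, Mog, Cnp, Cldn11, Myrf and Ugt8a were higher in both OL cultures than in both OPC cultures, in RNA-seq and in footprints. Mag was listed at 0 in both OPC RNA-seq libraries and had 371 and 317 FPKM in OLs, and Myrf was likewise at 0 in OPCs and had 47.5 and 25.4 FPKM in OLs. The 4 listed proliferation genes were lower in both OL cultures, with summed RNA-seq values of 346 and 478 FPKM in OPCs against 116 and 135 FPKM in OLs. None of the 5 tested OPC markers fell: Pdgfra, Gpr17 and Sox10 rose in both kinds of library, and Olig1 and Ptprz1 did not pass. Of the neuron markers, Tubb3 rose in both, and the others did not pass (4 in RNA-seq and 3 in footprints). The log2 change was below 0 for 2 of 5 neuron markers in RNA-seq and 1 of 4 in footprints. Of 4 listed astrocyte markers, 3 had higher RNA-seq means in OLs, including Gfap, at 0.155 FPKM and 0 in OPCs and 14.2 and 2.11 FPKM in OLs. Past the threshold, 2 of the 4 rose and 1 fell in RNA-seq (log2 change −1.08). In footprints 1 rose and 1 fell (log2 change −1.14). The part of these shifts in the results below was not tested.

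Several factors exist as paralogues, related genes that encode proteins of the same or a similar function, and the results turn on these pairs. Because the proteins are alike, it matters whether a short read can tell the mRNAs apart. Stretches of 60 coding bases are shown for 3 pairs, 5′ to 3′ from the Gencode vM21 transcripts on GRCm38, with capitals at the bases that differ within the pair. The first pair is the RNA helicase eIF4A around the codons of its DEAD motif, from chr11:69668689-69668748 (minus strand) for Eif4a1 and chr16:23110239-23110298 (plus strand) for Eif4a2.
Eif4a1: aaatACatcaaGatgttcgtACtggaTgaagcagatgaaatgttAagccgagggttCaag
Eif4a2: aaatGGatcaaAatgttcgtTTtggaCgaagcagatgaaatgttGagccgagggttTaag
The second pair is eIF5A around the codon of the lysine that is turned into hypusine, from chr11:69919151-69919210 (minus strand) for Eif5a and chr3:28782157-28782216 (plus strand) for Eif5a2.
Eif5a: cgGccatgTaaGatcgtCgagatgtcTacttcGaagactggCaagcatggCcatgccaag
Eif5a2: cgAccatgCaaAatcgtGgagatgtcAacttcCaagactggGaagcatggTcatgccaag
The third pair is the gamma subunit of eIF2 from its start codon, from chrX:94212574-94212633 (minus strand) for Eif2s3x and chrY:1010617-1010676 (plus strand) for Eif2s3y.
Eif2s3x: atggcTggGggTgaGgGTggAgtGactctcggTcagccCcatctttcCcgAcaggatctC
Eif2s3y: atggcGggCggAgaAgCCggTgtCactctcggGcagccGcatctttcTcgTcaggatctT

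The first and second of these pairs differ at 8 of 60 bases and the third at 13 of 60. Over the whole coding sequence, identity was 78.5% for Eif4a1 and Eif4a2, 73.2% for Eif5a and Eif5a2, 86.3% for Eif2s3x and Eif2s3y and 64.6% for Eif4g1 and Eif4g3. No run of 30 bases, about the length of a footprint, was shared within the first, second or last of these pairs, and 5 of 1387 were shared between Eif2s3x and Eif2s3y. Copies in other genes were counted as well. In the Gencode transcripts, other genes hold 99.2% of the 30-base words of the Eif4a1 coding sequence, 95.0% of those of Eif2s3x, 43.0% of those of Eif5a and 1.26% of those of Eif4g1. For their paralogues the shares were 40.8% (Eif4a2), 0.360% (Eif2s3y), 0 (Eif5a2) and 0 (Eif4g3). Over all 50 genes, 15 shared over 50% of their words in this way and 25 shared under 5%, and the levels of the first are uncertain because reads could be split between copies. Eif3j1 and Eif3j2 share 99.7% of the words of Eif3j1 with each other, and their separate values are not resolved.

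As a class, the factors are abundant: 20 of 50 lay above the 90th percentile of all listed transcripts in mean RNA-seq FPKM and 23 in mean footprint FPKM. The highest was Eef1a1, which carries aminoacyl-tRNAs to the ribosome. The factors held 2.26% and 2.38% of the listed footprint bases in OPCs and 1.42% and 1.65% in OLs, and 1.74% and 1.86% of the RNA-seq bases in OPCs against 1.24% and 1.41% in OLs. The groups did not overlap in either (means 2.32% ± 0.0850 and 1.53% ± 0.161 for footprints, 1.80% ± 0.0819 and 1.32% ± 0.122 for RNA-seq, SD, n = 2), and the exact two-sided permutation test gave p = 0.333 for both, the smallest value that 2 cultures against 2 allow.

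Most factors were lower in OLs, and a few paralogues rose. In RNA-seq, 46 of the 50 had a mean of at least 1 FPKM and were tested with limma. Of these, 19 fell and 2 rose at an adjusted p below 0.05, beside 20.2% of all tested transcripts that fell and 13.0% that rose. In footprints, 46 were tested, 13 fell and 3 rose, beside 10.8% that fell and 12.8% that rose over all transcripts. The median log2 change of the factors was −0.60 in RNA-seq and −0.58 in footprints, where the medians of all tested transcripts were −0.23 and −0.16. In all, 21 of 46 passed in RNA-seq and 16 of 46 in footprints, beside 33.2% and 23.6% of all tested transcripts. The log2 change was below 0 for 38 of 46 in RNA-seq and 37 of 46 in footprints (60.0% and 55.5% of all transcripts). In RNA-seq 34 factors were lower and 6 higher in both OL cultures than in both OPC cultures (44.2% and 27.6% of all), and in footprints 34 and 4 (37.9% and 31.8% of all). Eif4ebp3 and Pabpc2 reached the footprint minimum through OPCs alone. Both are included in the footprint median and among the 37 below 0 (log2 changes −3.94 and −1.29), and Pabpc2 among the 34 lower in footprints. Within pairs of same-numbered cultures the medians of the factors were −0.63 and −0.66 in RNA-seq and −0.54 and −0.62 in footprints. Relative to the median of all transcripts in the same pair they were −0.48 and −0.39 in RNA-seq and −0.62 and −0.34 in footprints, so the footprint shift of the first pair was the larger. The calls rest on 4 libraries. Without OPC replicate 1 or without OPC replicate 2, 1 factor fell and 0 rose in RNA-seq (2.13% and 1.43% of all transcripts fell), and in footprints 0 factors and 0 of all transcripts passed. Without OL replicate 2, 1 fell and 1 rose in RNA-seq (11.1% and 8.43% of all) and 2 fell and 1 rose in footprints (3.79% and 5.45% of all). Without OL replicate 1, 12 fell and 1 rose in RNA-seq (22.2% and 9.24% of all) and 17 fell and 2 rose in footprints (29.4% and 12.6% of all). Median-ratio scaling, which moves the median of all transcripts to −0.05 in RNA-seq and −0.14 in footprints, left 9 that fell and 3 that rose in RNA-seq (15.2% and 16.1% of all) and 7 and 3 in footprints (10.3% and 12.4% of all).

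**Figure D1:**
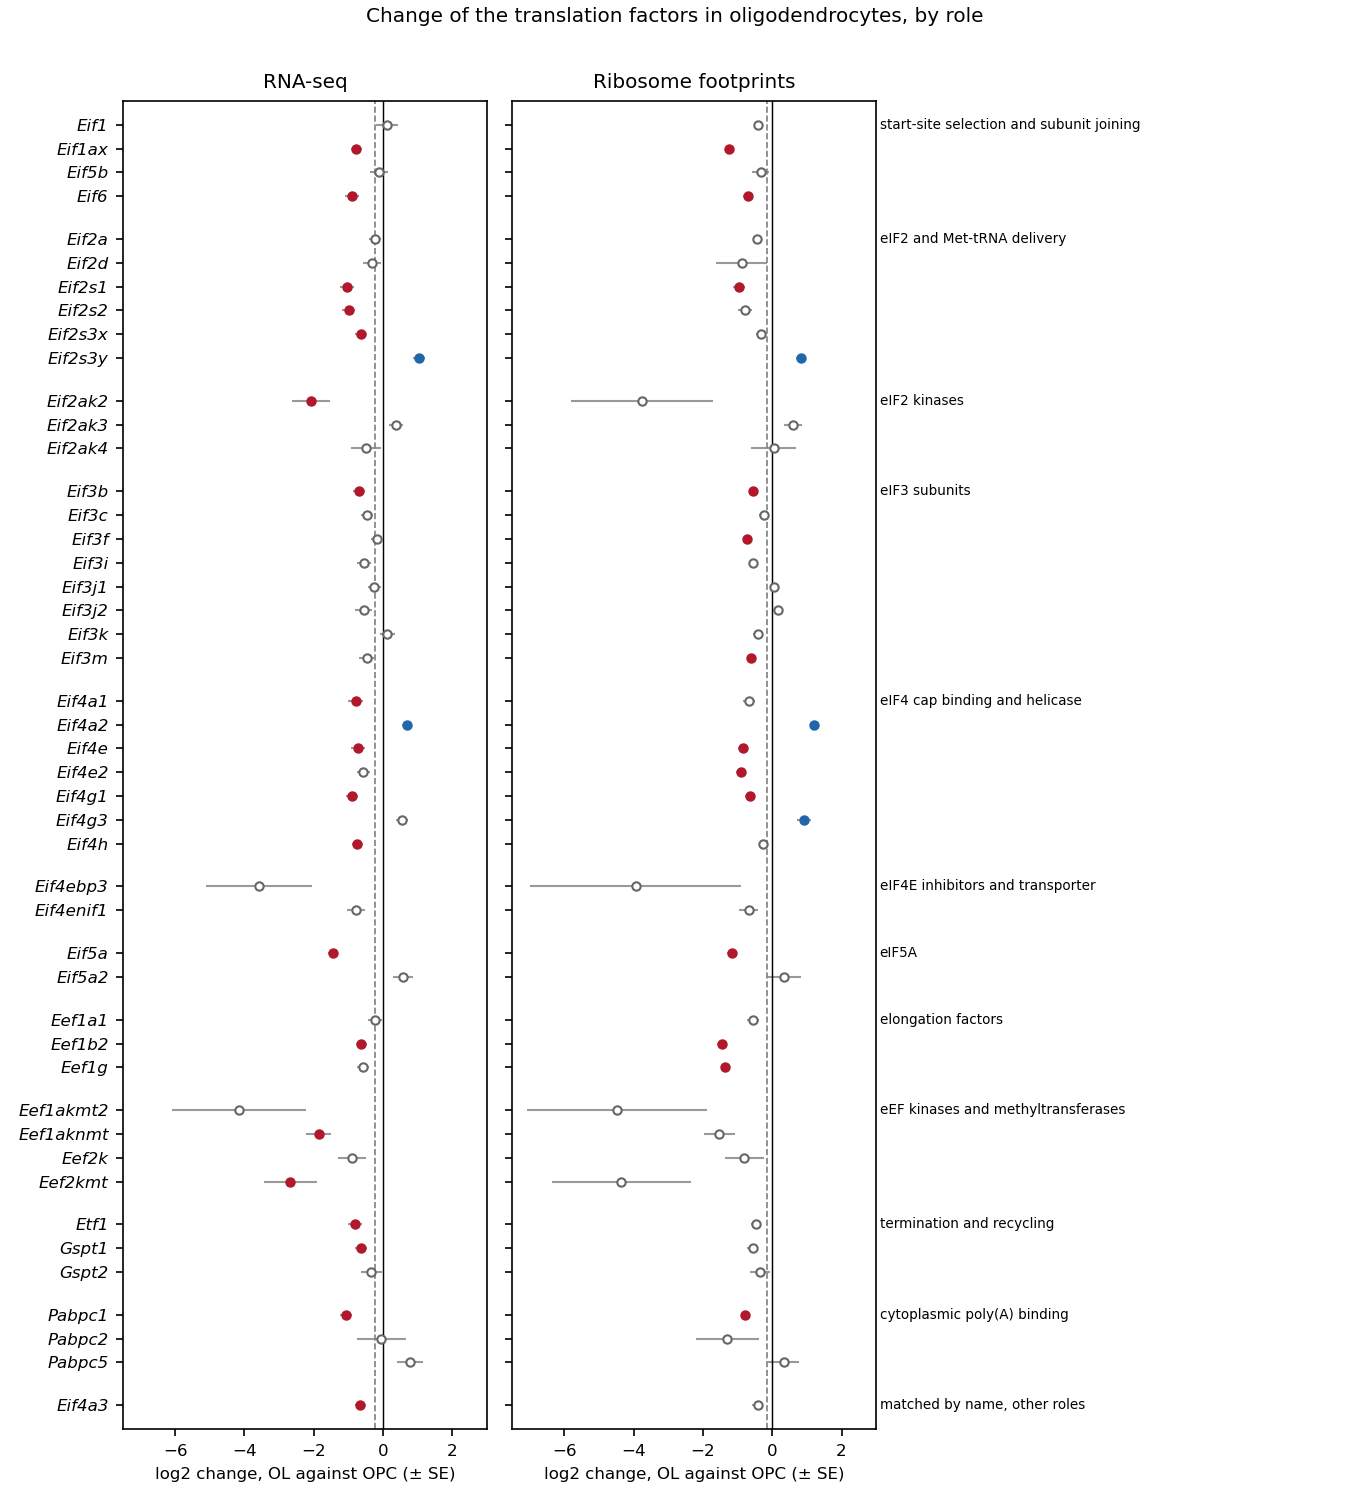
Log2 change (OL against OPC, x axis, with the SE from limma as bars) of the 46 tested factors in RNA-seq (left) and footprints (right), grouped by role from top to bottom. Red points fell and blue points rose at an adjusted p below 0.05, open points did not pass, the solid line marks 0 and the dashed line the median of all tested transcripts. Filled red points outnumber blue ones in both panels (19 against 2 and 13 against 3).

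The helicase eIF4A, which unwinds the leader of an mRNA for the scanning ribosome, has paralogues that moved in opposite directions in RNA-seq. Eif4a1, at chr11:69666936-69672317 (minus strand), had RNA-seq values of 369 and 512 FPKM in OPCs against 232 and 272 FPKM in OLs. Eif4a2, at chr16:23107444-23113947 (plus strand), had 98.3 and 105 FPKM in OPCs against 159.9 and 172 FPKM in OLs. Footprints of Eif4a1 were 959.9 and 1147 FPKM in OPCs against 599 and 727 FPKM in OLs. For Eif4a2 they were 126 and 133 FPKM in OPCs against 285 and 311 FPKM in OLs. For both genes and both kinds of library, the OL and OPC values did not overlap. In RNA-seq, Eif4a1 fell by 0.79 ± 0.21 on the log2 scale (SE, limma, adjusted p = 0.0346) and Eif4a2 rose by 0.70 ± 0.14 (adjusted p = 0.0165). Neither RNA-seq call passed in limma without the trend, and that of Eif4a1 was also lost with median-ratio scaling or no minimum on FPKM. Over all alternatives the RNA-seq change ran from −1.03 to −0.55 for Eif4a1 and from 0.65 to 0.88 for Eif4a2. The footprints of Eif4a2 rose by 1.20 ± 0.11 (adjusted p = 0.00812), 2.30-fold. Those of Eif4a1 had a log2 change of −0.67 ± 0.17 (limma, adjusted p = 0.0601, and 0.0129 with same-numbered cultures as a block). In every culture the ratio of the paralogues can be read within the library. Eif4a2 over Eif4a1 was 0.131 and 0.116 in OPC footprints and 0.475 and 0.428 in OL footprints, and 0.267 and 0.205 in OPC RNA-seq and 0.690 and 0.631 in OL RNA-seq. The ratio was thus 3.65-fold higher in OL footprints and 2.82-fold higher in OL RNA-seq, with an exact permutation p of 0.333 for each, the smallest possible.

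The scaffold eIF4G, which joins the cap-binding protein to the ribosome, has paralogues that moved in opposite directions in footprints. Eif4g1, at chr16:20672723-20692884 (plus strand), had RNA-seq values of 135 and 107 FPKM in OPCs against 66.2 and 63.8 FPKM in OLs. Eif4g3, at chr4:137993456-138207079 (plus strand), had 22.6 and 22.2 FPKM in OPCs against 34.4 and 31.6 FPKM in OLs. Neither gene overlapped between the cell types. Footprints of Eif4g1 were 159 and 133 FPKM in OPCs against 95.9 and 91.1 FPKM in OLs. Those of Eif4g3 were 21.6 and 26.1 FPKM in OPCs against 49.4 and 41.1 FPKM in OLs, again without overlap. Eif4g1 fell in both kinds of library (log2 change −0.89 ± 0.17 in RNA-seq, adjusted p = 0.0137, and −0.64 ± 0.14 in footprints, adjusted p = 0.0450, limma). Eif4g3 rose in footprints by 0.92 ± 0.21 (adjusted p = 0.0466, and 0.0854 with the replicate block), and its RNA-seq change of 0.56 ± 0.17 missed the threshold (adjusted p = 0.0528). Eif4g3 made up 12.0% and 16.4% of the summed Eif4g1 and Eif4g3 footprint FPKM in OPCs and 34.0% and 31.1% in OLs.

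The gamma subunit of eIF2, which holds the initiator tRNA, is encoded on both sex chromosomes of the mouse. Eif2s3x had RNA-seq values of 47.8 and 57.3 FPKM in OPCs against 32.6 and 34.7 FPKM in OLs. Eif2s3y had 27.3 and 28.3 FPKM in OPCs against 53.5 and 61.4 FPKM in OLs. The order of the pair was thus turned around in RNA-seq: Eif2s3x was the higher in both OPC libraries and Eif2s3y in both OL libraries. In footprints Eif2s3x remained the higher in every library, at 109.6 and 125 FPKM in OPCs against 86.4 and 102 FPKM in OLs. Footprints of Eif2s3y were 32.7 and 36.6 FPKM in OPCs against 60.1 and 62.3 FPKM in OLs. Eif2s3y rose by 1.04 ± 0.17 in RNA-seq (limma, adjusted p = 0.00745) and by 0.82 ± 0.15 in footprints (adjusted p = 0.0286). Eif2s3x fell by 0.64 ± 0.17 in RNA-seq (adjusted p = 0.0381), while its footprint change of −0.32 ± 0.15 did not pass (adjusted p = 0.211).

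Of the pair that encodes eIF5A, Eif5a was among the most used of all factors in footprints. Its footprints, at chr11:69916720-69921386 (minus strand), were 2986 and 2718 FPKM in OPCs against 1185 and 1356 FPKM in OLs. In RNA-seq it had 418 and 447 FPKM in OPCs against 159 and 160.0 FPKM in OLs. No OL value came near an OPC value. Eif5a fell by 1.44 ± 0.14 in RNA-seq (limma, adjusted p = 0.00204), 2.71-fold, and by 1.17 ± 0.15 in footprints (adjusted p = 0.0138), 2.25-fold. The RNA-seq fall of Eif5a was the only call among the factors that passed the threshold under all 11 alternatives. Eif5a2, at chr3:28781276-28798846 (plus strand), had RNA-seq values of 7.41 and 8.46 FPKM in OPCs against 14.8 and 9.50 FPKM in OLs, which did not overlap. Its footprints, 24.9 and 19.0 FPKM in OPCs against 42.7 and 17.8 FPKM in OLs, did overlap, and neither change passed (limma, adjusted p = 0.187 and 0.633). Eif5a2 supplied 0.826% and 0.696% of the summed eIF5A footprint FPKM in OPCs and 3.48% and 1.296% in OLs. Both enzymes that make hypusine were listed, Dhps and Dohh, and neither passed in RNA-seq or footprints.

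**Figure D2:**
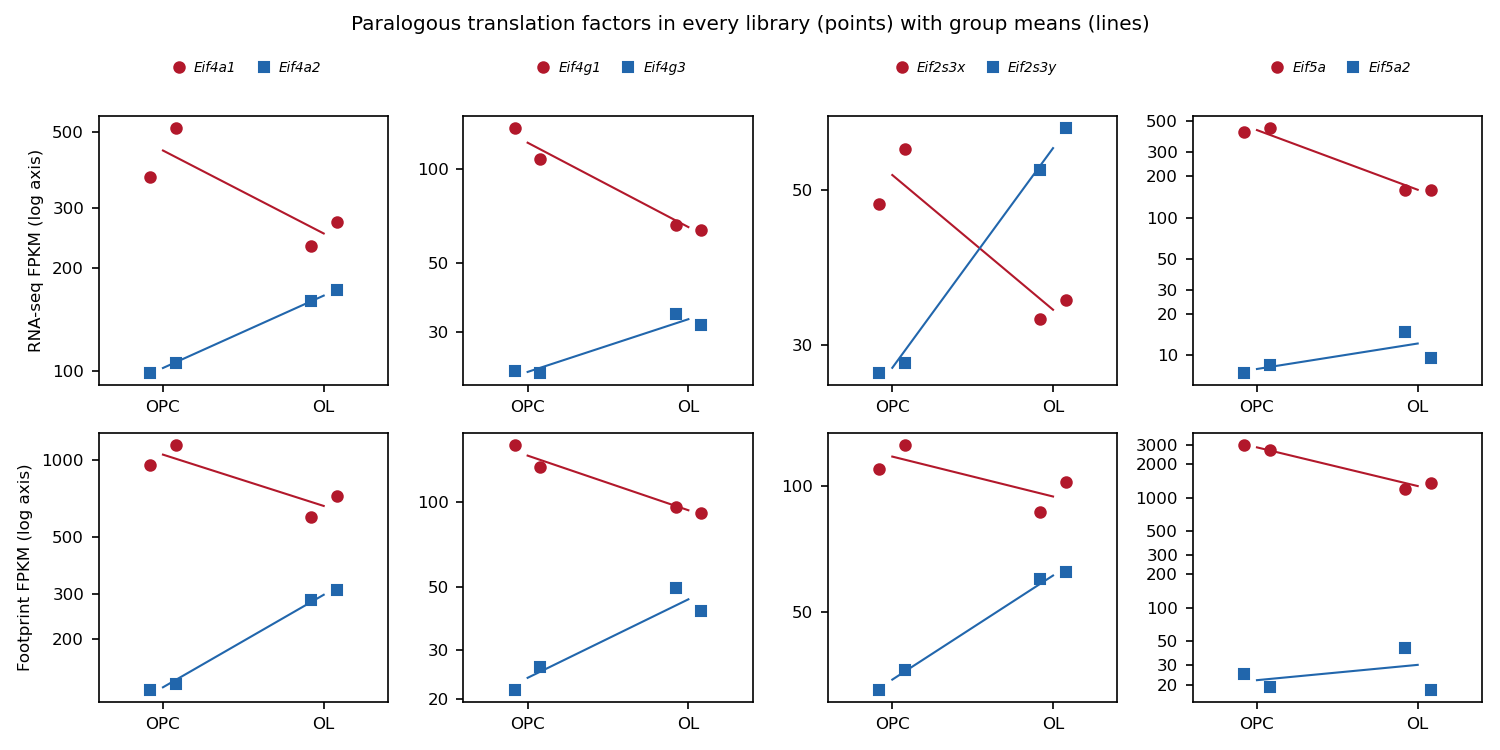
RNA-seq FPKM (top) and footprint FPKM (bottom) of 4 paralogue pairs in OPC and OL cultures, on log axes whose range differs between panels, with 1 point for each of the 2 cultures and lines between group means. Eif4a2, Eif4g3 and Eif2s3y were higher in both OL cultures than in both OPC cultures in each kind of library, and Eif4a1, Eif4g1, Eif2s3x and Eif5a were lower.

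The paralogues of the cap-binding and release factors had changes of the same sign within each pair. Eif4e, the cap-binding protein, had footprints of 298 and 313 FPKM in OPCs against 154 and 187 FPKM in OLs. Its relative Eif4e2, which binds the cap but does not recruit eIF4G in the usual way, had 160.3 and 179 FPKM in OPCs against 98.0 and 83.0 FPKM in OLs. Eif4e and Eif4e2 were lower in both OL cultures, and both fell in footprints (log2 change −0.85 ± 0.14, adjusted p = 0.0237, and −0.91 ± 0.14, adjusted p = 0.0221, limma). The Eif4e2 to Eif4e ratio of footprints overlapped between the groups, at 0.538 and 0.573 in OPCs and 0.638 and 0.445 in OLs. In RNA-seq, Eif4e had 38.5 and 49.3 FPKM in OPCs against 24.0 and 29.2 FPKM in OLs and fell (limma, adjusted p = 0.0456), and Eif4e2 had 50.5 and 57.5 FPKM in OPCs against 32.3 and 40.9 FPKM in OLs, with a log2 change of −0.57 ± 0.19 (limma, adjusted p = 0.0672, and 0.0345 with the block). The third relative, Eif4e3, is listed at 0 in all 8 libraries except OL replicate 1 RNA-seq, at 0.215 FPKM. Gspt1 and Gspt2 encode forms of eRF3, which helps eRF1 release the finished protein. Gspt1 had RNA-seq values of 61.9 and 62.7 FPKM in OPCs against 43.5 and 36.4 FPKM in OLs and fell (limma, adjusted p = 0.0330), and its footprints, 168 and 152 FPKM in OPCs against 121.4 and 96.5 FPKM in OLs, did not pass (adjusted p = 0.0825). Gspt2 had 6.75 and 8.19 FPKM in OPCs against 6.64 and 5.17 FPKM in OLs and did not pass (adjusted p = 0.411), nor did its footprints, at 17.8 and 19.0 FPKM in OPCs against 17.1 and 12.3 FPKM in OLs (adjusted p = 0.421).

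Of 3 tested elongation factors, 2 fell in footprints (10.8% of all tested transcripts) and 1 in RNA-seq (20.2% of all). Eef1b2 is the nucleotide exchange factor that recharges eEF1A, and it lies at chr1:63176825-63180486 (plus strand). Its footprints were 1465 and 1448 FPKM in OPCs against 492 and 580.3 FPKM in OLs. In RNA-seq it had 280.1 and 297 FPKM in OPCs against 171 and 203 FPKM in OLs. The groups were far apart in footprints and closer, but still apart, in RNA-seq. Eef1b2 fell by 1.45 ± 0.13 in footprints (limma, adjusted p = 0.00812), the largest fall in footprints that passed among the factors, and by 0.63 ± 0.16 in RNA-seq (adjusted p = 0.0295). Eef1g, another subunit of the same exchange complex at chr19:8967041-8978479 (plus strand), had footprints of 693 and 784 FPKM in OPCs against 290.0 and 282 FPKM in OLs. Its RNA-seq levels were 338 and 264 FPKM in OPCs against 211 and 192 FPKM in OLs. Again the groups did not overlap in either. The footprints of Eef1g fell by 1.37 ± 0.12 (limma, adjusted p = 0.00751), and its RNA-seq change was −0.57 ± 0.18 (adjusted p = 0.0556, and 0.0157 with the block).

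Eef1a1, at chr9:78478449-78481724 (minus strand), had RNA-seq values of 1764 and 2000.1 FPKM in OPCs against 1464 and 1739 FPKM in OLs. Its footprints were 3353 and 3731 FPKM in OPCs against 2204 and 2621 FPKM in OLs. Both were lower in both OL cultures, although in RNA-seq the gap between the lowest OPC and the highest OL value was small. Neither change passed (log2 change −0.24 ± 0.19, adjusted p = 0.384, and −0.56 ± 0.17, adjusted p = 0.0869, limma), and the footprint change passed with the block (adjusted p = 0.0153). Its 30-base words are shared to 88.5% with other genes, and those of Eef1g to 95.2%, while for Eef1b2 the share is 24.6%. Eef1a2, the form of eEF1A found in mature neurons and muscle, had 0.307 and 0.0882 FPKM in OPC RNA-seq and 0.249 FPKM in the footprints of OPC replicate 1, and is listed at 0 in the other 5 libraries.

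Among the genes that set the start site, Eif1ax, which with eIF1 opens the ribosome for scanning, had footprints of 668 and 647 FPKM in OPCs against 281 and 268 FPKM in OLs. Its RNA-seq levels were 69.7 and 73.1 FPKM in OPCs against 40.7 and 43.2 FPKM in OLs. It fell by 1.26 ± 0.10 in footprints (limma, adjusted p = 0.00708) and by 0.77 ± 0.15 in RNA-seq (adjusted p = 0.0144). Eif6, which keeps the large subunit from joining too early, had RNA-seq values of 45.9 and 50.2 FPKM in OPCs against 29.8 and 22.3 FPKM in OLs. Footprints of Eif6 were 134 and 133 FPKM in OPCs against 89.2 and 74.9 FPKM in OLs, and the groups overlapped in neither. It fell in RNA-seq (log2 change −0.90 ± 0.20, limma, adjusted p = 0.0222) and in footprints (−0.71 ± 0.14, adjusted p = 0.0349). Eif1 and Eif5b, the subunit-joining GTPase, did not pass in either, and their RNA-seq values overlapped between OPCs and OLs. The footprint change of Eif1 was −0.41 ± 0.12 (limma, adjusted p = 0.0765, and 0.0301 with the block).

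The other eIF2 subunits fell in RNA-seq, as did Eif2s3x. Eif2s1, the alpha subunit whose phosphorylation lowers general initiation, had RNA-seq values of 43.6 and 58.0 FPKM in OPCs against 23.4 and 25.7 FPKM in OLs. Its footprints were 267 and 301 FPKM in OPCs against 128 and 164 FPKM in OLs. It fell in both (log2 change −1.03 ± 0.20, adjusted p = 0.0142, and −0.97 ± 0.17, adjusted p = 0.0274, limma). Eif2s2, the beta subunit, had RNA-seq values of 69.1 and 87.9 FPKM in OPCs against 37.9 and 40.5 FPKM in OLs and fell by 0.99 ± 0.18 (limma, adjusted p = 0.0116). Its footprints were 272 and 298 FPKM in OPCs against 141 and 193 FPKM in OLs, and their change of −0.79 ± 0.19 did not pass (adjusted p = 0.0555, and 0.0301 with the block). Eif2a and Eif2d, which can bring initiator tRNA without eIF2, passed in neither (adjusted p = 0.313 and 0.399 in RNA-seq and 0.0918 and 0.426 in footprints).

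Of the eIF2 kinases, which phosphorylate Eif2s1 under stress, 3 were listed. Eif2ak3 (PERK), the kinase of the endoplasmic reticulum, had RNA-seq values of 12.2 and 12.0 FPKM in OPCs against 16.1 and 15.3 FPKM in OLs. Its footprints were 10.9 and 10.5 FPKM in OPCs against 17.0 and 15.5 FPKM in OLs. It was higher in both OL cultures in each, but neither change passed (log2 change 0.37 ± 0.20, adjusted p = 0.210, and 0.60 ± 0.26, adjusted p = 0.186, limma). Eif2ak2 (PKR), which senses double-stranded RNA, had RNA-seq values of 4.27 and 4.38 FPKM in OPCs against 1.41 and 0.627 FPKM in OLs and fell by 2.08 ± 0.54 (limma, adjusted p = 0.0334). Footprint levels reached 8.02 and 10.5 FPKM in OPCs and 4.59 FPKM in OL replicate 1, and it is listed at 0 in OL replicate 2, where the level of OL replicate 1 would have given about 22.0 reads of 30 bases. Eif2ak4 (GCN2), which senses uncharged tRNA, had RNA-seq values of 6.21 and 3.56 FPKM in OPCs against 3.97 and 2.76 FPKM in OLs, which overlapped, and footprints of 2.76 and 2.02 FPKM in OPCs against 2.43 and 2.44 FPKM in OLs, which also overlapped. It passed in neither (adjusted p = 0.406 and 0.966).

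The 8 listed subunits of eIF3, the largest initiation factor, were mostly not past the threshold. In RNA-seq 1 of 8 fell (20.2% of all tested transcripts) and in footprints 3 of 8 fell (10.8% of all), and none rose. Eif3b, a core subunit, had footprints of 246 and 227 FPKM in OPCs against 163 and 161 FPKM in OLs. In RNA-seq it had 108 and 90.4 FPKM in OPCs against 66.3 and 56.5 FPKM in OLs. It fell in both (log2 change −0.69 ± 0.17 in RNA-seq, adjusted p = 0.0307, and −0.54 ± 0.11 in footprints, adjusted p = 0.0350, limma). Eif3f had footprints of 464 and 500.5 FPKM in OPCs against 299 and 287 FPKM in OLs and RNA-seq values of 109.6 and 106 FPKM in OPCs against 103 and 87.9 FPKM in OLs. Its footprints fell by 0.72 ± 0.11 (limma, adjusted p = 0.0188), and its RNA-seq change was −0.18 ± 0.16 (adjusted p = 0.407) and 0.00 after median-ratio scaling. Eif3m had footprints of 207 and 235 FPKM in OPCs against 137 and 154 FPKM in OLs and fell there (limma, adjusted p = 0.0450), with 62.5% of its words shared with other genes. In RNA-seq Eif3m had 93.3 and 138 FPKM in OPCs against 80.6 and 82.3 FPKM in OLs and did not pass (adjusted p = 0.143). Eif3i had log2 changes of −0.55 ± 0.21 and −0.54 ± 0.13 (adjusted p = 0.0951 and 0.0518, and 0.0224 and 0.0290 with the block). The remaining subunits, Eif3c, Eif3j1, Eif3j2 and Eif3k, had log2 changes from −0.56 to 0.13 in RNA-seq and from −0.40 to 0.16 in footprints. Footprints were 164 and 153 FPKM in OPCs against 171 and 161 FPKM in OLs for Eif3j1, and 53.1 and 60.3 FPKM in OPCs against 59.5 and 67.3 FPKM in OLs for Eif3j2, overlapping for both. In RNA-seq Eif3j1 had 23.0 and 23.1 FPKM in OPCs against 21.1 and 17.8 FPKM in OLs, and Eif3j2 had 20.5 and 30.8 FPKM in OPCs against 18.4 and 15.7 FPKM in OLs.

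Eif4h, which stimulates the eIF4A helicase, passed in RNA-seq and not in footprints. RNA-seq levels were 179.5 and 179 FPKM in OPCs against 97.6 and 117 FPKM in OLs. Footprints were 557 and 539 FPKM in OPCs against 435 and 480.4 FPKM in OLs. The RNA fell by 0.74 ± 0.16 (limma, adjusted p = 0.0182) and the footprint change of −0.26 ± 0.11 did not pass (adjusted p = 0.174). Eif4enif1, which carries eIF4E into the nucleus, had RNA-seq values of 24.2 and 16.4 FPKM in OPCs against 11.7 and 11.3 FPKM in OLs and did not pass (adjusted p = 0.0620, and 0.0375 with the block). Its footprints, 18.1 and 15.5 FPKM in OPCs against 11.2 and 9.78 FPKM in OLs, did not pass (adjusted p = 0.165). Eif4ebp3, an inhibitor of eIF4E, had 5.25 and 8.09 FPKM in OPC RNA-seq and 2.94 FPKM in OL replicate 1, and is listed at 0 in OL replicate 2. Its footprints were 23.4 FPKM in OPC replicate 2 and are listed at 0 in the other 3 libraries, and 63.5% of its words and 501 of its exon bases lie in an overlapping gene on the same strand. Its RNA-seq adjusted p was 0.124 (limma), and 0.0427 with the block.

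The release factor eRF1 (Etf1) had RNA-seq values of 75.8 and 95.5 FPKM in OPCs against 43.1 and 54.8 FPKM in OLs and fell (log2 change −0.81 ± 0.20, limma, adjusted p = 0.0297). Its footprints, 197 and 201 FPKM in OPCs against 133 and 156 FPKM in OLs, were lower in both OL cultures without passing (adjusted p = 0.0726). Pabpc1, the main protein that coats poly(A) tails in the cytoplasm, had RNA-seq values of 195 and 159.6 FPKM in OPCs against 87.4 and 80.8 FPKM in OLs, at chr15:36595661-36608973 (minus strand). Its footprints were 206 and 214 FPKM in OPCs against 114 and 132 FPKM in OLs. Pabpc1 fell by 1.07 ± 0.17 in RNA-seq (limma, adjusted p = 0.00690) and by 0.78 ± 0.12 in footprints (adjusted p = 0.0228). Pabpc5, on the X chromosome, had RNA-seq values of 3.27 and 2.39 FPKM in OPCs against 5.68 and 4.18 FPKM in OLs and did not pass (adjusted p = 0.171). Pabpc2 and Pabpc4l were under 3 FPKM in every library, and Pabpc4l had 0.517 and 0.727 FPKM in OPC RNA-seq and 0.213 FPKM in OL replicate 1, with a listed 0 in OL replicate 2. Its footprints were 1.44 and 0.794 FPKM in OPCs against 0.403 and 0.329 FPKM in OLs. Eif4a3 fell in RNA-seq (log2 change −0.65 ± 0.16, limma, adjusted p = 0.0301) with values of 90.04 and 109 FPKM in OPCs against 61.1 and 64.7 FPKM in OLs. Its footprints, 174 and 207 FPKM in OPCs against 130.4 and 154 FPKM in OLs, did not pass (adjusted p = 0.138).

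Of the enzymes that modify elongation factors, 2 of the 4 tested fell in RNA-seq (20.2% of all tested transcripts) and none passed in footprints (23.6% of all). Eef1aknmt, which methylates eEF1A, had RNA-seq values of 6.09 and 8.61 FPKM in OPCs against 2.00 and 1.84 FPKM in OLs and fell by 1.86 ± 0.37 (limma, adjusted p = 0.0146). Its footprints, 9.90 and 13.5 FPKM in OPCs against 4.69 and 3.34 FPKM in OLs, did not pass (adjusted p = 0.0821). Eef2kmt, which methylates eEF2, had 8.05 and 8.97 FPKM in OPCs against 2.93 and 0.499 FPKM in OLs and fell (adjusted p = 0.0452). Footprint levels reached 13.4 and 14.1 FPKM in OPCs and 4.43 FPKM in OL replicate 1, with a listed 0 in OL replicate 2, and 472 of its exon bases overlap Alg1 on the opposite strand. Eef1akmt2 had RNA-seq values of 13.7 and 20.5 FPKM in OPCs and 8.82 FPKM in OL replicate 1 and is listed at 0 in OL replicate 2 in both kinds of library, where the level of the other OL culture would have given about 25.4 reads in RNA-seq and 36.4 in footprints. Footprint levels of Eef1akmt2 were 26.7 and 29.7 FPKM for OPCs and 16.0 FPKM for OL replicate 1. Its RNA-seq adjusted p was 0.151 (limma), and 0.0424 with the block. Eef2k, the kinase that slows elongation by phosphorylating eEF2, had 8.56 and 7.77 FPKM in OPCs against 6.27 and 2.98 FPKM in OLs and did not pass (adjusted p = 0.149), nor did its footprints, at 21.0 and 16.4 FPKM in OPCs against 17.2 and 6.53 FPKM in OLs. Eef1akmt3 had 0.151 FPKM in the RNA-seq of OPC replicate 1 and 0.163 FPKM in that of OL replicate 2, and is listed at 0 in the other 6 libraries.

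Set side by side, 9 of 46 factors fell in both RNA-seq and footprints (8.95% of all transcripts tested in both) and 2 rose in both (9.72% of all). None moved in opposite directions past the threshold (0.0124% of all). In RNA-seq alone 10 fell (11.7% of all), in footprints alone 4 fell (2.11% of all) and 1 rose (3.24% of all), and 20 passed in neither (60.8% of all). A pass in one and not in the other does not show that the changes differ. The change in RD is that difference.

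**Figure D3:**
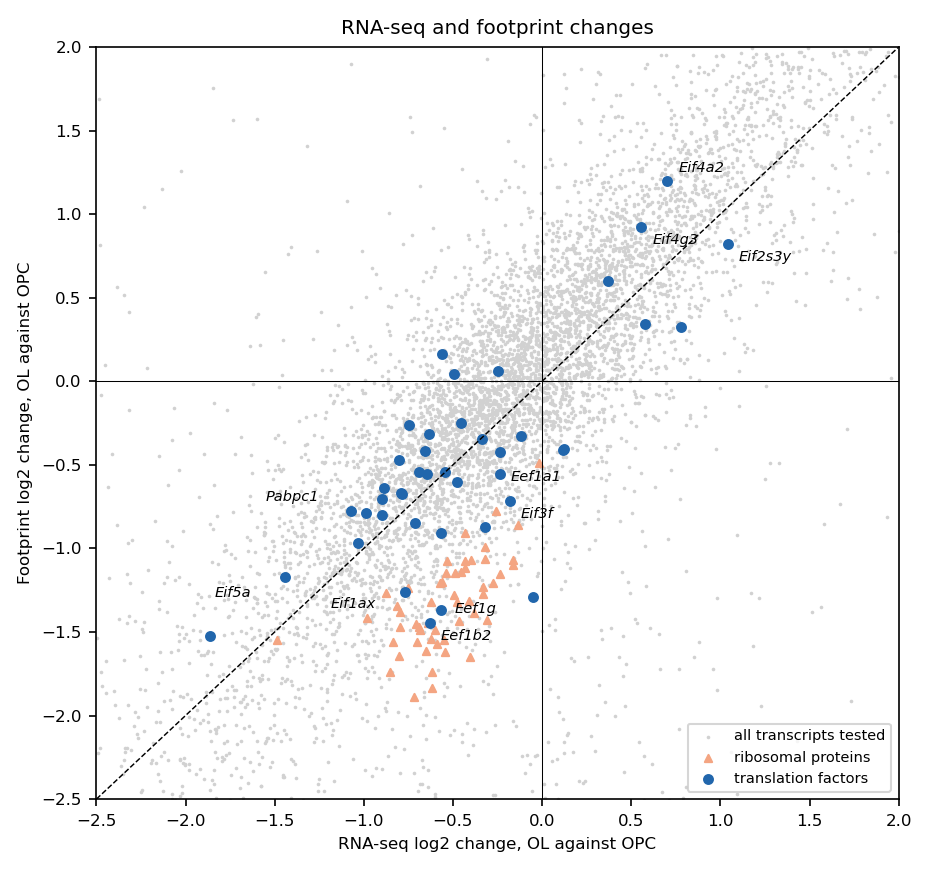
RNA-seq log2 change (x axis) against footprint log2 change (y axis), OL against OPC, for all transcripts tested in both (grey), ribosomal proteins (orange triangles) and translation factors (blue), limited to changes between −2.5 and 2, with the dashed line where both are equal. Eef1b2 (−0.63 and −1.45) and Eef1g (−0.57 and −1.37) lie among the ribosomal proteins below the line, while Eif4a2 (0.70 and 1.20) lies at the upper right.

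RD spread widely among the factors, and its median overlapped between the cell types. Over the 42 factors above 0 in every library, RD in OPC replicate 1 ran from 0.444 for Eif2ak4 to 9.58 for Eif1ax. The transcript of Eif2ak4 has 5212 bases, 4944 of them coding, and that of Eif1ax has 5172, 432 of them coding. Footprints are scaled to the coding length and RNA-seq to the transcript length, so RD levels of different genes may not be comparable. The median RD of these 42 was 2.43 and 2.21 in OPCs and 2.52 and 2.28 in OLs, so the groups overlapped (exact permutation p = 0.667). In OPC replicates 1 and 2, Eif4a1 had an RD of 2.60 and 2.24 against 1.28 and 1.26 for Eif4a2. Eif2s3x had 2.29 and 2.18 against 1.20 and 1.29 for Eif2s3y. Other genes hold 99.2% of the 30-base words of Eif4a1 and 95.0% of those of Eif2s3x. Whether ribosome density itself differs within these pairs was not tested. Of the 46 factors tested for a change in RD (the difference between the footprint and RNA-seq changes), 0 passed at an adjusted p below 0.05, beside 1 of 8056 transcripts (0.0124%). That fit takes the 8 libraries as independent. With log2 RD taken within each culture, 0 factors and 0 of all transcripts passed. At an unadjusted p below 0.05, limma over the 8 libraries gave 6 factors (4.8% of all transcripts), 4 with lower RD in OLs (1.46% of all) and 2 with higher RD (3.34% of all). Of 44 factors with an RD in each culture, 13 were lower in both OL cultures than in both OPC cultures and 14 were higher, beside 12.7% and 30.2% of all transcripts. Pabpc2, which reached the footprint minimum through OPCs alone, is among the 13. Eif2ak2 and Eef2kmt are listed at 0 in the footprints of OL replicate 2. The RD of Eif2d was 1.17 and 1.03 in OPCs and 1.79 and 0.312 in OLs.

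The 4 with lower RD were Eef1b2, Eef1g, Eif3f and Eif1ax. The RD of Eef1b2 was 5.23 and 4.88 in OPCs and 2.87 and 2.87 in OLs. That of Eef1g was 2.05 and 2.97 in OPCs and 1.37 and 1.47 in OLs. That of Eif3f was 4.24 and 4.74 in OPCs and 2.91 and 3.27 in OLs. For each of these the cell types did not overlap, and the log2 changes in RD were −0.82 ± 0.20, −0.80 ± 0.21 and −0.54 ± 0.17 (SE, limma, adjusted p = 0.718, 0.781 and 0.875). Eif1ax had an RD of 9.58 and 8.84 in OPCs and 6.90 and 6.21 in OLs (log2 change −0.49 ± 0.14, adjusted p = 0.866). The 2 with higher RD were Eif4a2, at 1.28 and 1.26 in OPCs and 1.78 and 1.81 in OLs (log2 change 0.50 ± 0.15, adjusted p = 0.875), and Eif4h, at 3.11 and 3.02 in OPCs and 4.46 and 4.11 in OLs (0.48 ± 0.18, adjusted p = 0.875).

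A list of factors with known TOP mRNAs holds 5 of the genes measured here, Eef1a1, Eef1b2, Eef1g, Eif3f and Pabpc1. In footprints 4 of the 5 fell (10.8% of all tested transcripts) and in RNA-seq 2 of the 5 (20.2% of all), and the log2 change in RD was below 0 for 4 of the 5 (42.3% of all). The exception was Pabpc1, with an RD of 1.05 and 1.34 in OPCs and 1.303 and 1.63 in OLs, which overlap. Eef1a1 had an RD of 1.90 and 1.87 in OPCs and 1.505 and 1.507 in OLs (log2 change −0.32 ± 0.26, limma, adjusted p = 0.875). The median log2 change in RD was −0.54 over the 5, against 0.04 over all 46 factors and 0.10 over all transcripts. Divided by the median RD of the other 37 factors in the same culture, the median RD of the 5 was 0.835 and 1.36 in OPCs and 0.583 and 0.687 in OLs, with an exact permutation p of 0.333, the smallest possible.

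The cytosolic ribosomal proteins, which are also encoded by TOP mRNAs, were set beside these 5. For 53 of them the median RD was 2.65 and 2.67 in OPCs and 1.66 and 1.56 in OLs, and the RD of all 53 had a negative log2 change, against 22 of 46 factors. For the change in RD, 0 of the 53 passed at an adjusted p below 0.05 (limma), as among the factors. At an unadjusted p below 0.05, 43 of the 53 had lower RD in OLs (1.46% of all transcripts). The ratio of the factors' median RD to that of the ribosomal proteins was 0.917 and 0.826 in OPCs and 1.52 and 1.46 in OLs, and these did not overlap (exact permutation p = 0.333, the smallest possible). In footprints 52 of 54 ribosomal proteins fell, against 13 of 46 factors and 10.8% of all tested transcripts. In RNA-seq the medians were close, at −0.54 and −0.60. The 3 listed subunits of eIF2B, the exchange factor that recharges eIF2, passed in neither, with log2 changes from −1.01 to −0.54 in RNA-seq and from −0.63 to −0.16 in footprints.

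**Figure D4:**
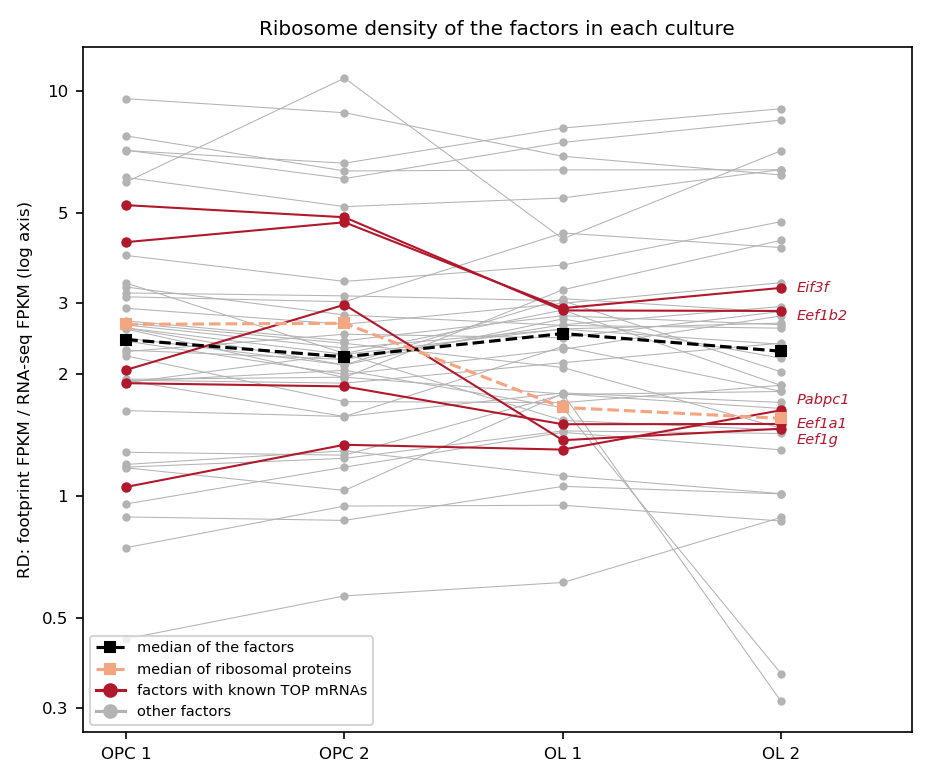
RD (footprint FPKM over RNA-seq FPKM, log axis) of the 42 factors above 0 in every library, in each of the 4 cultures, with factors of known TOP mRNAs in red and the medians of the factors (black) and of 53 ribosomal proteins (orange) as dashed lines. The ribosomal protein median drops from 2.65 and 2.67 in OPCs to 1.66 and 1.56 in OLs, as do Eef1b2, Eef1g and Eif3f, while the median of the factors stays between 2.21 and 2.52. The RD of Eif2d and Pabpc2 is lowest in OL replicate 2.

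The study also measured the tRNAs Lys-UUU and Phe-GAA, which read, among others, the lysine codon AAA and the phenylalanine codon UUU. The AAA share of lysine codons had a median of 0.446 in the factors against 0.368 in all transcripts, and 33 of 50 factors lay above the latter. The UUU share of phenylalanine codons had a median of 0.517 against 0.429, and 38 of 50 lay above. The median coding length was 1220 bases (all transcripts, 1374) and the median GC content of the coding sequence was 49.7% (all transcripts, 53.1%). These are descriptions of the sequences, without a test.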

How the data were processed

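Footprint and RNA-seq libraries of 2 OPC and 2 OL cultures were used, 8 value columns in all. The authors deposited FPKM, after mapping with HISAT2 2.1.0 to GRCm38 (mm10) and quantifying with StringTie 1.3.5 and ballgown on canonical coding transcripts of Gencode vM9, on the CDS for footprints and on whole transcripts for RNA-seq; their code sets no strand option, so reads of genes that overlap on opposite strands cannot be told apart. Counts were not used here, and depth in aligned bases was estimated from the smallest steps of FPKM times length.

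FPKM were tested as log2(FPKM + 0.1) with limma 3.58.1 in R 4.3.3 (eBayes with trend, two-sided, Benjamini-Hochberg over all transcripts, threshold 0.05) leaving out transcripts whose mean was under 1 FPKM. Fold changes are on that scale and understate low genes. Each kind of library was fitted on its own over 4 libraries, RNA-seq and then footprints (8346 and 8342 transcripts), RD as an interaction over 8 libraries (8056 transcripts). Eif4ebp3 and Pabpc2 passed the footprint minimum through OPCs alone, and Eif4e3, Eef1a2, Eef1akmt3 and Pabpc4l were not tested. Scripts were tested on simulated data. Permutation tests are exact and two-sided.

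By the methods, the OLs were the differentiated counterparts of the OPC replicates. Matching them by replicate number is an assumption, and deviations of same-numbered cultures correlated weakly (r = 0.108 in RNA-seq and 0.0860 in footprints). The block is an alternative. Among the factors, values in every library were given for genes past the threshold, the paralogue pairs set out above, kinases, inhibitors and genes listed at 0. Other genes, and those that act on or with the factors, were given by some values, a range or a test. The members and lists were chosen with earlier results of these data known. Coordinates, coding sequences and shared 30-base words come from Gencode vM21, in which all 50 transcripts were found. Other factors, such as Eef2, Eif4b and the remaining eIF3 subunits, were not analysed here. Some marker genes are not reported here.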

Additional observations from a re-analysis of the deposited data

How the results depend on the processing

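In RNA-seq, 19 factors fell and 2 rose. Median-ratio scaling left 9 that fell, with a median change of −0.42, and limma without the trend left 6 of 46 that fell and 1 that rose, where 14.3% and 10.6% of all transcripts did, so the factors that fell were then no larger a share than among all transcripts. In footprints, 13 fell and 3 rose, against 7 that fell with median-ratio scaling and 3 that fell and 1 that rose without the trend (4.38% and 8.04% of all). No minimum on FPKM gave a footprint median of −0.50 relative to all transcripts. The replicate block gave 25 lower and 2 higher in RNA-seq (24.8% of all were lower) and 18 lower and 2 higher in footprints (9.63% of all were lower), and 0 calls in RD; the changed calls are given with each gene. Leaving out each culture in turn gave 1 to 12 lower and 0 to 1 higher in RNA-seq, with medians from −0.67 to −0.53 (relative to all transcripts, −0.46 to −0.30), and 0 to 17 lower and 0 to 2 higher in footprints (relative medians −0.66 to −0.26). For RD these fits gave 0 to 3 lower, medians from −0.054 to 0.088 and relative medians from −0.16 to 0.014. In such fits the lone culture is assumed to vary like the others. The median RD change was −0.13 after median-ratio scaling. No called factor changed direction in RNA-seq or footprints under the 11 alternatives run. Among genes not called, the RNA-seq change after median-ratio scaling was 0.061 for Eif5b, 0.00199 for Eif3f and 0.12 for Pabpc2. Leaving out each culture in turn gave RNA-seq changes from −0.36 to 0.13 for Eif5b, −0.26 to 0.50 for Eif1, −0.11 to 0.36 for Eif3k and −0.39 to 0.41 for Pabpc2, and footprint changes from −0.17 to 0.26 for Eif2ak4, −0.29 to 0.97 for Eif5a2 and −1.83 to 0.087 for Eif2d. The cause was not tested. Precision is lowest in OL replicate 2, the shallowest culture, where 31.1% of footprint values are listed at 0.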

Other observations

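Genes that act on or with the factors were also read, 27 of them tested in each kind of library. In RNA-seq 5 fell and 0 rose, where 20.2% and 13.0% of all tested transcripts did, and in footprints 2 fell and 1 rose, where 10.8% and 12.8% of all did. The counts that fell are near those shares and are no result about these genes as a class. Larp1, which binds the start of TOP mRNAs, had footprints of 40.8 and 38.6 FPKM in OPCs against 19.0 and 12.4 FPKM in OLs and fell in both kinds of library. Paip2b, which holds poly(A) binding protein away from mRNAs, had footprints of 41.4 and 36.0 FPKM in OPCs against 97.7 and 74.8 FPKM in OLs, and was the gene whose footprints rose. Dph1, an enzyme of diphthamide synthesis on eEF2, had RNA-seq values of 9.20 and 8.25 FPKM in OPCs against 1.78 and 0.828 FPKM in OLs and fell. Ddx3x, a helicase of initiation, and Denr, which recycles ribosomes with Mcts1, also fell in RNA-seq, and Denr fell in footprints too. Of the 9 tested kinases and mTORC1 components, only Akt1s1, an inhibitory subunit of mTORC1, passed, and it fell in RNA-seq.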
